A study of Caenorhabditis elegans with 3 samples.

Results

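Of the 4548 reproducible NHR-25 regions in C. elegans L2 larvae, 4524 lay on the nuclear chromosomes, and 239 of these had their summit within 500 bp of a tRNA, snoRNA, snRNA or miRNA gene. These 239 sites are described here. They were chosen by position alone, from the distance between the summit and the gene body in the Ensembl annotation of assembly WBcel235 (ce11), so their signal, their replicate support, the exact place of the summit and the sequence there were not used. The gene nearest to the summit was a tRNA gene at 88 sites, a snoRNA gene at 91, a snRNA gene at 24 and a miRNA gene at 36. Genes of more than 1 of these biotypes were in reach of 2 sites. The snRNA sites include that of mir-1831, a 22 bp gene with a miRNA name that the annotation lists as a snRNA and that is counted as one here.

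The sites come from chromatin immunoprecipitation and sequencing of whole larvae of strain OP33, of both sexes, which carried the integrated transgene wgIs33 and the unc-119(ed3) mutation on chromosome III. The transgene adds GFP-FLAG to the C-terminal end of NHR-25, and binding was read through the tagged protein. The labels name sonication for replicate 3 and only a size range for replicates 1 and 2. All 3 samples were biological replicates of this single group, so no condition was compared, and the sites were set against the other 4285 nuclear sites and against the genome. Signals are from whole animals, in which more bound cells and stronger binding per cell cannot be told apart.

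NHR-25 is a nuclear receptor related to Drosophila FTZ-F1 and mammalian SF-1, receptors that bind an extended half-site as monomers, and the worm protein is known for roles in molting, skin cells and the vulva. The genes near these sites are transcribed by different machines. A tRNA gene is read by RNA polymerase III from an internal promoter of box A and box B, which the factor TFIIIC binds. Genes of spliceosomal snRNAs and of the trans-spliced leader RNAs carry a proximal sequence element upstream of the start, read by the SNAP complex, and many miRNA genes are transcribed by RNA polymerase II from starts some way upstream of the hairpin. The snoRNAs guide modification of ribosomal RNA and are often made from introns of host genes.

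The strongest snRNA sites were at genes of the sls-2 family, which encode the SL2 leader RNAs that are spliced onto downstream genes of operons. The 90 bases before the annotated start are shown for 3 genes at or beside the strong sites on chromosome II (sls-2.1, sls-2.2 and sls-2.3), for sls-2.8 and W05B2.8, both with a site supported in all 3 replicates, and for sls-2.12, which had no site in reach. Capitals mark 2 blocks, GCGNAACC and TGTCNG, where N is any base. Both are in the windows of sls-2.8 and W05B2.8, the second alone in those of sls-2.1, sls-2.3 and sls-2.12, and neither in that of sls-2.2. Both blocks were picked after such windows had been seen. Sequences are from the RefSeq copy of the same assembly, written 5′ to 3′ on the gene's strand.
sls-2.1 (chrII:5844775-5844864, plus strand): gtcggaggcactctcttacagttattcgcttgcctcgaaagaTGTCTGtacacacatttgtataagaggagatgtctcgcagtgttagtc
sls-2.2 (chrII:5543508-5543597, plus strand): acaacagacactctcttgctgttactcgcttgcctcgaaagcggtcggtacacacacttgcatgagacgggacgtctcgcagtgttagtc
sls-2.3 (chrII:5544274-5544363, minus strand): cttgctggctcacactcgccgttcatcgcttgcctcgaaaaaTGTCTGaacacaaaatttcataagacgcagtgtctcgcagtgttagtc
sls-2.8 (chrIII:12250375-12250464, plus strand): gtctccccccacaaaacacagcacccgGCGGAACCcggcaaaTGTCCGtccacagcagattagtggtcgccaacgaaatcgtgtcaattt
W05B2.8 (chrIII:10989589-10989678, plus strand): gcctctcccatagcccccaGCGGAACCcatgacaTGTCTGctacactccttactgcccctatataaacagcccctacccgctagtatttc
sls-2.12 (chrIV:5261823-5261912, plus strand): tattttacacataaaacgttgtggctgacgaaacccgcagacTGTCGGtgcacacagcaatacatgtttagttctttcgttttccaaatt

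Among the windows upstream of snoRNA genes with a summit 1 to 150 bp before the start, 2 kinds are shown. The first 4 below carry the same blocks as the snRNA genes, and the last 2 carry the cores of a tRNA-like box A (TGGNNNAGT) and box B (GTTCNA), in that order, upstream of the snoRNA. Capitals mark these letters. They are shown because these genes had a summit next to the element. Most such summits had neither element: 11 were at genes with GCGNAACC, 6 at genes with both boxes and 23 at genes with neither. Among the genes shown, smy-2 belongs to the SmY RNAs, small RNAs of nematodes that the annotation lists as a snoRNA here.
Y53F4B.47 (chrII:15025894-15025983, minus strand): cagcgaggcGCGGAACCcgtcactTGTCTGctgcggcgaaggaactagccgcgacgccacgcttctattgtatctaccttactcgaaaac
smy-2 (chrIV:9511467-9511556, minus strand): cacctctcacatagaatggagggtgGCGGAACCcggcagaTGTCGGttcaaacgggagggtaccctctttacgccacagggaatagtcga
C16D9.11 (chrV:8228970-8229059, minus strand): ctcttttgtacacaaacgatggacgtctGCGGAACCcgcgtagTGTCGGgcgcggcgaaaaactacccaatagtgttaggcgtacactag
W04D2.7 (chrV:12491190-12491279, plus strand): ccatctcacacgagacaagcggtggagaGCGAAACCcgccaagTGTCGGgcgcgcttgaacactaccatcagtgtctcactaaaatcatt
T03F7.8 (chrV:11314138-11314257, plus strand): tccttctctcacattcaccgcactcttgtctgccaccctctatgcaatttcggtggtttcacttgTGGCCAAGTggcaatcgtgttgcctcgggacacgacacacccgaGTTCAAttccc
M106.6 (chrII:10840197-10840316, plus strand): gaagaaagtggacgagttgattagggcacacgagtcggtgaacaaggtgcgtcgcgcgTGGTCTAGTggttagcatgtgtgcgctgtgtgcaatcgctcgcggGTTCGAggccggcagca

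For tRNA genes the 50 bases before the gene and the gene itself are shown, with the box A and box B cores in capitals where the letters match exactly. The glutamate tRNA gene C28G1.t1 and the proline tRNA gene F46G11.t2 had their summits upstream of these boxes. The box B core in its looser form GTTCNA was present in 588 of all 612 tRNA genes and in the nearest gene of all 88 tRNA sites. The exact box A core was present in 182 genes and at 27 sites.
C28G1.t1 (chrX:8836063-8836184, plus strand): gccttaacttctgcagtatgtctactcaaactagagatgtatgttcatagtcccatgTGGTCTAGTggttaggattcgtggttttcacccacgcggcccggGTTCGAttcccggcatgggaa
F46G11.t2 (chrX:5801211-5801332, minus strand): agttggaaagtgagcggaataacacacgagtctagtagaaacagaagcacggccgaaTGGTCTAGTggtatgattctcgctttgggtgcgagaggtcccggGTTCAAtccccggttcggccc

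For miRNAs, the mir-35, mir-51 and mir-58 families were looked up. The one with most members in reach was mir-51 to mir-56, of which 5 of 6 genes had a site within 500 bp, where 15.3% of all miRNA genes had one. The neighbours mir-54, mir-55 and mir-56 were reached by 2 sites between them, so the 5 genes are not separate hits. The mature sequences of these 5 genes, read at the RefSeq coordinates, share the seed shown in capitals (bases 2 to 8). The same seed was found in 6 annotated genes in all.
mir-52: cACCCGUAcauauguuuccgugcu
mir-53: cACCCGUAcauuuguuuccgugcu
mir-54: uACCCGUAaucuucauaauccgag
mir-55: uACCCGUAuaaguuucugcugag
mir-56: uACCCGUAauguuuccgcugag

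The 101 bases around a summit are shown for 2 strong miRNA sites, on the strand of the miRNA gene, with GAGAGA or its complement TCTCTC in capitals, because this repeat was found at more miRNA sites than other sites. The summit is the middle base.
mir-5549 (chrIII:6972033-6972133, minus strand): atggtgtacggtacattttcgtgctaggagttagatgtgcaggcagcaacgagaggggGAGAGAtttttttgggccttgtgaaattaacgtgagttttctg
mir-228 (chrIV:5561573-5561673, plus strand): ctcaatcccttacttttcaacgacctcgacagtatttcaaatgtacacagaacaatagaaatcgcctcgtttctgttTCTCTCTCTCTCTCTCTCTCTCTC

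Sites near small RNA genes made up more of the list than their share of the genome. The 239 sites were 5.28% of the nuclear list (95% Wilson interval 4.67 to 5.97%), while 1.32% of nuclear positions lay within 500 bp of one of the 1348 small RNA genes. Among the 4548 regions of highest signal in each replicate, the share was 4.87%, 5.30% and 5.10% in replicates 1, 2 and 3, or 5.09 ± 0.216% (SD, n = 3). All 3 replicates stood above the genome share, by 3.86 ± 0.164-fold, with p = 0.25 in the exact two-sided sign-flip permutation test, the smallest p that 3 replicates allow.

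Each biotype showed this on its own. The fold over the genome share was 5.43 ± 0.273 for snoRNA genes, 3.87 ± 0.239 for snRNA genes, 3.25 ± 0.0942 for tRNA genes and 2.88 ± 0.279 for miRNA genes (SD, n = 3 replicates, exact p = 0.25 each). The snoRNA genes thus had the highest fold in these lists, and each of the 3 replicates stood above the genome share for every biotype.

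Seen from the genes, 85 of 346 snoRNA genes had a summit within 500 bp, or 24.6% (Wilson 20.3 to 29.4%). The counts were 22 of 129 snRNA genes (17.1%), 101 of 612 tRNA genes (16.5%) and 40 of 261 miRNA genes (15.3%). By comparison, 10.3% of the 19973 protein-coding genes had a summit within 500 bp of their start and 1.90% of the 15363 piRNA genes had one within 500 bp of the gene. In the replicates' own strongest regions the shares were 25.8 ± 1.20% of snoRNA genes, 15.2 ± 0.448% of snRNA genes, 15.7 ± 0.283% of tRNA genes and 13.5 ± 1.11% of miRNA genes (SD, n = 3). The snoRNA genes were thus reached more often than the other biotypes by more than the spread between replicates, which all score the same genes. In the optimal list the Wilson interval of the snRNA share, 11.5 to 24.5%, overlapped that of the snoRNA share. Those of the tRNA share (13.8 to 19.7%) and the miRNA share (11.5 to 20.2%) did not. The tRNA share was above the snRNA share in each replicate, by less than 1 percentage point.

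The biotypes differed in strength. The signal that the authors' peak caller gave each region had a median of 237 at snRNA sites, 210 at miRNA sites, 203 at snoRNA sites and 150 at tRNA sites, and of 182 at the other nuclear sites. The top 10% of the list by signal held 8 of the 24 snRNA sites (33.3%), 6 of the 36 miRNA sites (16.7%), 9 of the 91 snoRNA sites (9.89%) and 2 of the 88 tRNA sites (2.27%), against 427 of the 4285 other sites (9.96%). Of the 8 snRNA sites, sls-2.1 and sls-2.4 gave 2 each, both summits of a gene lying in the same interval. The quartiles overlapped between all groups, from 155 to 514 at snRNA sites, from 122 to 197 at tRNA sites and from 136 to 288 at the other sites.

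**Figure D1:**
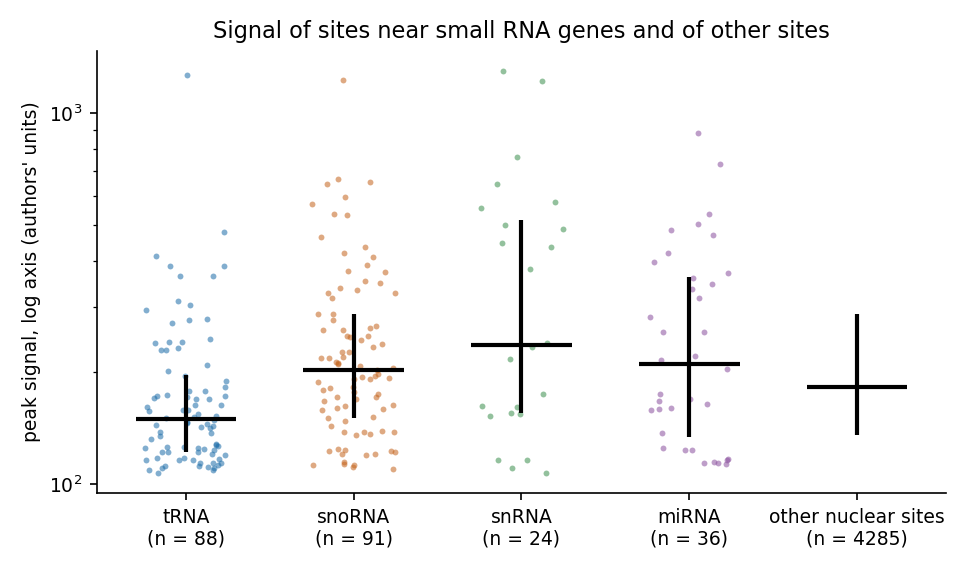
Peak signal of each site near a tRNA, snoRNA, snRNA or miRNA gene (points, log axis, authors' units) with the median (horizontal line) and the quartiles (vertical line), beside the median and quartiles of the other 4285 nuclear sites. The tRNA sites have the lowest median, 150, and the snRNA sites the highest, 237.

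Replicate support was lowest at tRNA sites as well. All 3 replicates had an overlapping region among their strongest 4548 at 17 of 24 snRNA sites (70.8%), 60 of 91 snoRNA sites (65.9%), 23 of 36 miRNA sites (63.9%) and 32 of 88 tRNA sites (36.4%), where 55.3% of all nuclear regions had such support. The 24 snRNA sites include both summits of 5 genes. At sls-2.1 and sls-2.4 both summits share an interval, and so the same support is counted for each. For tRNA sites the support in replicates 1, 2 and 3 was 64.8%, 61.4% and 69.3%, against 80.4%, 77.1% and 77.5% for the other sites. The difference was -13.1 ± 4.34 percentage points (SD, n = 3), lower in all 3 replicates (exact sign-flip p = 0.25). It shrank to -1.09 points in the upper 50% of the list by signal and to -2.22 points with 2 times as many regions per replicate, and turned to 0.878 points when an overlap of at least 50% of both regions was asked for.

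For snoRNA sites the difference was 5.95 ± 3.30 points and for snRNA sites 6.43 ± 3.54 points, higher in all 3 replicates each (exact sign-flip p = 0.25). For miRNA sites it was 2.26 ± 8.29 points (exact p = 1), with replicate 2 above the other sites and replicates 1 and 3 below. The snRNA difference turned to -8.59 points with the 50% overlap and to -2.22 points with 2 times as many regions per replicate, and the snoRNA difference was 1.35 points with 2 times as many regions and -0.172 points in the upper 50% of the list by signal.

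**Figure D2:**
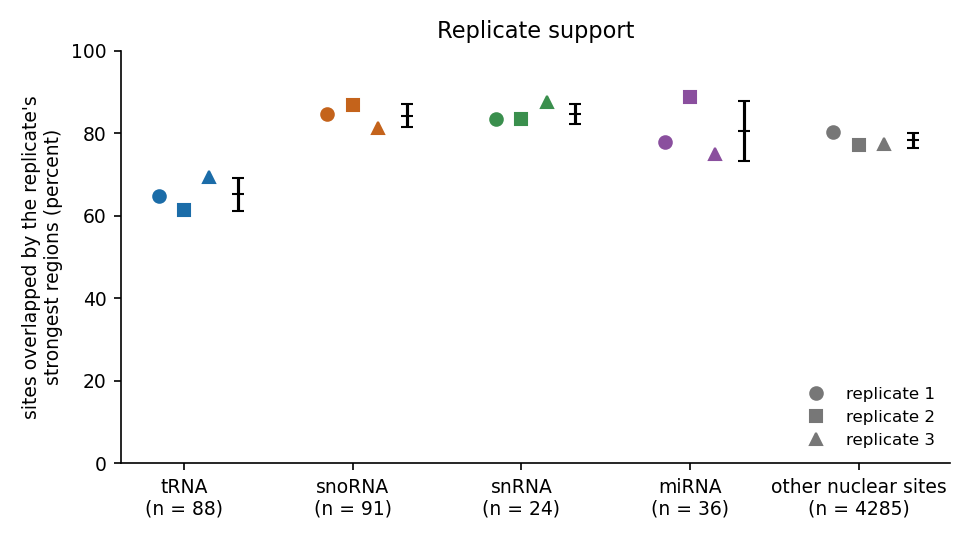
Percent of sites overlapped by each replicate's 4548 regions of highest signal, by biotype of the nearest gene and for the other nuclear sites (replicates as symbols, black bar mean ± SD, n = 3). All 3 replicates of the tRNA sites lie between 61.4 and 69.3%, below the 77.1 to 80.4% of the other sites.

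Summits stood at the gene start for 3 of the biotypes and away from it for miRNA genes. Relative to the gene start, where negative values are upstream, the median offset was -2.5 bp at tRNA sites, -28 bp at snoRNA sites, -5.5 bp at snRNA sites and -184 bp at miRNA sites. Summits within 100 bp of the start were 65 of 88 at tRNA genes (73.9%), 55 of 91 at snoRNA genes (60.4%) and 16 of 24 at snRNA genes (66.7%), but 2 of 36 at miRNA genes (5.56%). About 18% of the positions that the 500 bp rule allows lie that close to the start (18.7%, 17.9%, 18.1% and 18.3% in the same order).

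The replicates' own strongest regions gave medians of 27.5, -22 and 5 bp at tRNA genes, -27.5, -35 and -45 bp at snoRNA genes, -29, -16.5 and -34 bp at snRNA genes, and -188, -218.5 and -228 bp at miRNA genes. The miRNA medians thus lay apart from those of the other 3 biotypes in every replicate. The tRNA medians took both signs, and among sites supported by both of any 2 replicates the tRNA median was -22 to -20.5 bp. For a single site, the overlapping summits of the 3 replicates spread over a median of 79 bp at tRNA sites, 62.5 bp at snoRNA sites, 36 bp at snRNA sites and 88.5 bp at miRNA sites, so an offset smaller than this cannot be told from 0 at one site.

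**Figure D3:**
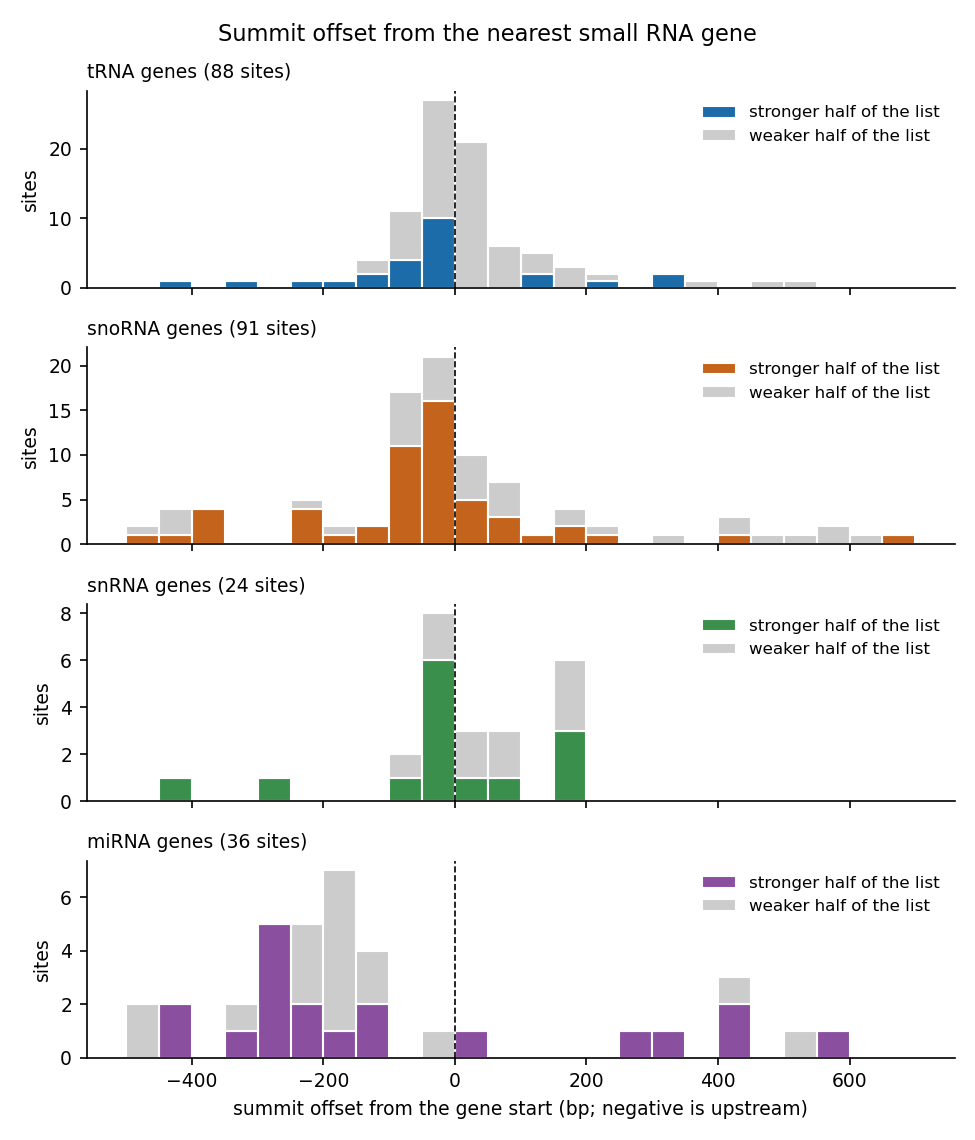
Number of sites by summit offset from the start of the nearest tRNA, snoRNA, snRNA or miRNA gene, in bins of 50 bp, stacked by the upper 50% (colour) and the lower 50% (gray) of the nuclear list by signal. The tRNA, snoRNA and snRNA sites pile up around the start, and 27 of the 36 miRNA sites lie 101 to 500 bp upstream of it.

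The strongest snRNA sites were at the starts of SL2 RNA genes. Replicate positions given for a site are those of the strongest overlapping region in each replicate's full list of 30000. At sls-2.1 the summit stood at -24 bp with a signal of 1301, rank 18 of the nuclear list, and at sls-2.4 at -23 bp with 1225, rank 28. In replicates 1, 2 and 3 the main summit was at -6, -19 and -35 bp for sls-2.1 and at -26, -25 and -49 bp for sls-2.4, at ranks 49, 38 and 29 and at ranks 55, 14 and 55 of those lists. All of these lie upstream of the gene and within 50 bp of its start. The sequence of sls-2.1 printed above places the TGTCTG block upstream of this summit.

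At 5 snRNA genes the list held a pair of summits, 1 before the gene and 1 past its end. These were sls-2.1 (-24 and 192 bp), sls-2.4 (-23 and 177 bp), F38E11.10 (-48 and 154 bp), W05B2.8 (-43 and 162 bp) and C52E4.8 (-35 and 167 bp). The first summit was 23 to 48 bp upstream of the start and the second 24 to 83 bp past the gene's end, and the upstream summit had the higher signal in each pair (1301 and 555 at sls-2.1, 576 and 161 at W05B2.8). Pairs at other biotypes were 1 tRNA, 6 snoRNA and 3 miRNA genes, of which 1, 2 and 1 had summits on both sides of the gene.

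The pairs of snRNA genes were 200 to 216 bp apart, with a median of 202 bp. In the whole nuclear list, the 56 intervals with more than 1 summit had a median spacing of 202 bp as well and a lowest spacing of 199 bp, so the distance within a pair is close to the smallest that the authors' list holds. In the replicates, a second summit past the gene was looked for only among the 4548 regions of highest signal of each. It was present in all 3 for sls-2.1 (203, 192 and 164 bp) and sls-2.4 (182, 175 and 166 bp). It was present in replicates 1 and 3 for F38E11.10, in replicates 2 and 3 for C52E4.8 and in replicate 2 for W05B2.8.

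At sls-2.2 the optimal list gave 1 summit inside the gene, at 97 bp, with a signal of 761. Among the 4548 regions of highest signal, replicate 1 had summits at -29 and 171 bp, replicate 2 at 97 bp and replicate 3 at 216 bp. The position was thus not the same in any pair of replicates. At sls-2.8 the summit was at -23 bp with a signal of 487, and the replicates gave -21, -22 and -57 bp. The summit near sls-2.6 lay farther out, at -287 bp (replicates -285, -287 and -289 bp), inside the promoter window of its host gene hgo-1 and of spe-46.

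**Figure D4:**
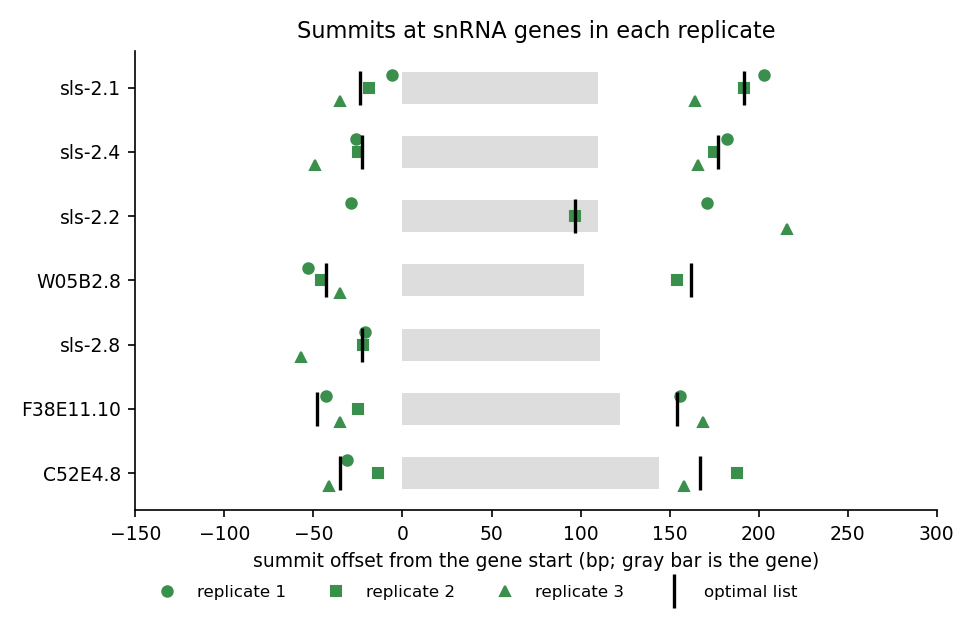
Summits in each replicate's strongest regions (symbols) and in the optimal list (black lines) at 7 snRNA genes, by offset from the gene start in bp, with the gene as a gray bar and the strongest gene on top. At 5 of the genes the optimal list holds a summit before the gene and another past its end, as at sls-2.1 (-24 and 192 bp).

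Among the 18 sls-2 genes, 10 had a summit in reach (55.6%, Wilson 33.7 to 75.4%), against 12 of 99 snRNA genes outside the leader RNA families (12.1%). In the replicates the sls-2 share was 46.3 ± 8.49% and that of the other snRNA genes 11.4 ± 1.54% (SD, n = 3). The 10 differ in strength. The sites at sls-2.14, sls-2.15 and sls-2.18, which lie in introns, had signals of 116, 116 and 110 and the support of 1, 1 and 0 replicates, and the site near sls-2.7 had 174 and 2 replicates. The nearest summit to sls-2.3 was that of sls-2.2, at 469 bp.

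None of the 12 sls-1 genes, which encode the SL1 leader RNA in the 5S ribosomal DNA repeat, had a site, and the nearest summit to any of them lay 152309 bp away. All 12 have an identical copy elsewhere in the assembly, while none of the sls-2 genes has one. Whether reads that match several places were kept is not given in the sources used here, and their part in the empty sls-1 count was not tested. Of the 22 reached snRNA genes, 6 have an identical copy, of 44 such genes in all.

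The snRNA sites outside the leader families were weaker but often well supported. W05B2.8, a small nuclear RNA gene in an intron of dhc-4, had a signal of 576 at -43 bp, with the replicates at -53, -46 and -35 bp. At sup-6, in an intron of F58G1.7, it was 447 at 10 bp (replicates 14, 15 and 197 bp), and at F38E11.10 it was 436 at -48 bp. Replicate 3 also had a weaker summit at sup-6, at -34 bp. At C52E4.8, next to the Sm protein gene snr-4, the signal was 380 at -35 bp. Over all snRNA sites, free-standing genes had 13, of which 7 were sls-2 sites, with a median signal of 436 and support in all replicates at 11, and intronic genes had 11 with 161 and support at 6.

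The block GCGNAACC stood within 150 bp upstream of 14 of the 22 snRNA genes in reach of a site (63.6%), against 31 of the 107 snRNA genes with none (29.0%). It was upstream of 13 of the 85 reached snoRNA genes (15.3%) and 14 of the 261 others, of 57 of 19973 protein-coding genes (0.285%) and of 1 of 101 reached tRNA genes (0.990%). The shorter block TGTCNG was upstream of 16 of the 22 (72.7%) and of 63 of the 107 (58.9%), and of 1597 protein-coding genes. The search ran on the gene's strand. The windows printed for sls-2.1 and sls-2.2 hold no GCGNAACC. The 14 sites at snRNA genes with this block had a median signal of 196, and 9 were supported in all replicates. The 10 sites at snRNA genes without it had a median signal of 527, and 8 were supported in all replicates.

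Sites near snoRNA genes were the most numerous within 500 bp (91 in reach, and 89 for tRNA genes), but not within 250 bp (71, and 83 for tRNA genes). The strongest, at F54E7.10 inside rps-12, had a signal of 1233 (rank 27), with the summit at -248 bp and the replicates at -236, -249 and -248 bp. This summit stood at -125 bp from the nearest coding start, that of ska-3, and in the promoter window of rps-12, which encodes a ribosomal protein of the small subunit. The site at Y24D9A.9, inside rpl-7A, had 653 with a summit at -368 bp, which is -86 bp from the start of rpl-7A. K02F3.15, in an intron of the bZIP gene zip-2, had 665 at 437 bp, past the snoRNA and at -216 bp from a zip-2 start.

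The free-standing snoRNA genes with the strongest sites had summits nearer to the start. Y53F4B.47 had a signal of 646 at -70 bp (replicates -70, -55 and -70 bp). M7.15 had 570 at -72 bp (replicates -94, -70 and -85 bp), in the promoter windows of both klc-1 and the ubiquitin-conjugating enzyme gene let-70. W06H8.17 had 594 at -213 bp, with replicates at -166, -214 and -218 bp. The Y53F4B.47 summit lies between the 2 blocks capitalised in its printed sequence.

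The snoRNA genes with the first block upstream were reached more often than those with neither element. The block was picked after upstream windows of these data had been read, so the intervals cannot test this difference. The 2 blocks are called a proximal element by their place, and its identity was not tested. Of 27 snoRNA genes with GCGNAACC within 150 bp upstream, 13 had a site in reach (48.1%, Wilson 30.7 to 66.0%). Of 15 with box A followed by box B, 6 did (40.0%, Wilson 19.8 to 64.3%), an interval that overlaps that of the genes with neither. Of the 304 with neither, 66 did (21.7%, Wilson 17.4 to 26.7%). The 14 sites at genes with the proximal block had a median offset of -30.5 bp, a median signal of 247 and support in all replicates at 13. All 6 sites at genes with upstream boxes lay within 150 bp upstream, at a median of -50.5 bp and a median signal of 202.

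The same elements were rare at protein-coding genes, where box A followed by box B was found 150 bp upstream of 18 of 19973 (0.0901%) and both blocks of the proximal element in order at 6 (0.0300%). The block and box searches were chosen after upstream windows had been read, so these counts describe the list and support no claim about which elements matter.

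**Figure D5:**
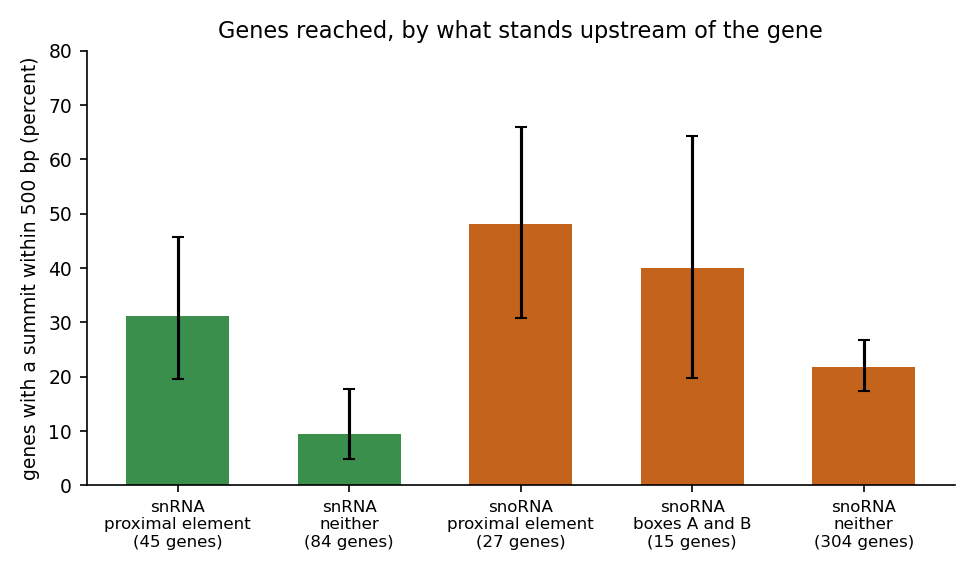
Percent of snRNA and snoRNA genes with a summit within 500 bp, by the element found in the 150 bp upstream of the gene (bars, with 95% Wilson intervals and the number of genes below). Genes with the first block of the proximal element stand at 31.1% for snRNA and 48.1% for snoRNA, against 9.52% and 21.7% for genes with neither element. The elements were picked after upstream windows had been read.

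T03F7.8, in an intron of the cuticlin-like gene cutl-18 on the other strand, had its summit at -46 bp with a signal of 328 (replicates -51, -46 and -46 bp). In its printed window the summit is the base after the box A core, and the box B core lies between the summit and the gene. W04D2.7, in an intron of the innexin gene inx-11, had 264 at -27 bp (replicates -38, -61 and -42 bp). At C16D9.11, in an intron of rol-3, the optimal summit was at -36 bp but the replicates spread over -9, -137 and 78 bp. M106.6, in an intron of the condensin gene mix-1, had 212 at -96 bp (replicates -127, -64 and -73 bp).

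Intronic snoRNA genes split by where the host's promoter lies. The promoter window runs from 1000 bp upstream to 200 bp downstream of a coding transcript start. Of the 41 sites at intronic snoRNA genes, 17 lay in the window of the host, with support in all replicates at 11, and 24 lay outside it, with support at 14. Of the 17, 6 were within 100 bp of the snoRNA start and 6 were nearer to it than to any coding start. Of the 24, 19 were within 100 bp and 23 were nearer, with a median offset of -1 bp. The sites were kept for lying near the snoRNA gene, so the counts of nearer starts follow in part from that rule. The 17 include all 5 sites whose host encodes a ribosomal protein (rps-12, rpl-7A, rpl-24, rps-27A and rpl-4).

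Of the snoRNA genes with a ribosomal protein host, 5 of 23 were reached (21.7%), against 35 of 146 with another host (24.0%). For sites in a host's window, the snoRNA gene and the host promoter cannot be told apart as the bound feature. The same holds for miRNA genes, where 6 of 13 intronic sites lay in the host's window, 5 of them nearer to a coding start than to the miRNA.

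Over all biotypes, the share of sites in a promoter window of any coding gene was 26.1% at tRNA sites (23 of 88), 47.3% at snoRNA sites, 62.5% at snRNA sites and 33.3% at miRNA sites, where 52.0% of all nuclear regions lay in one. The tRNA sites thus had the fewest coding promoters beside them. The summit was nearer to the small RNA start than to any coding start at 85 of 88 tRNA sites, 76 of 91 snoRNA sites, 23 of 24 snRNA sites and 30 of 36 miRNA sites. These counts follow in part from the rule, which asked for a small RNA gene in reach and for no coding start. Within promoter windows they were 20 of 23, 28 of 43, 14 of 15 and 6 of 12 in the same order, and outside them every site was nearer to the small RNA start.

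Intronic genes made up 42.0% of tRNA sites and 46.1% of tRNA genes, 45.1% of snoRNA sites and 48.8% of snoRNA genes, 45.8% of snRNA sites and 42.6% of snRNA genes, and 36.1% of miRNA sites and 37.2% of miRNA genes. Among the replicates' own strongest regions the intronic share of sites was 38.9 ± 3.47% for tRNA, 43.4 ± 3.16% for snoRNA, 36.9 ± 6.23% for snRNA and 38.5 ± 4.19% for miRNA (SD, n = 3). For tRNA and snoRNA it was below the share of genes in all 3 replicates. In the replicates' own regions, 11.3 to 13.8% of intronic tRNA genes were reached, against 17.9 to 18.8% of free-standing ones, and 23.5 ± 0.342% of intronic snoRNA genes against 31.2 ± 2.33% of free-standing ones (SD, n = 3). These replicate values did not overlap. For snRNA genes (16.4 ± 1.82% and 16.7 ± 2.46%) and miRNA genes (14.4 ± 2.06% and 13.2 ± 0.658%) they did. In the optimal list the Wilson intervals of intronic and free-standing genes overlapped for tRNA (11.5 to 19.9% and 14.1 to 22.4%). They also did for snoRNA (17.9 to 30.6% and 22.5 to 38.4%).

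By strand, intronic snoRNA genes were reached at 22.7 ± 0.709% when sense to the host and at 27.4 ± 4.12% when antisense, and intronic miRNA genes at 13.4 ± 2.99% and 16.7 ± 0%. The antisense snoRNA genes number 28 and the antisense miRNA genes 30. For intronic tRNA genes the values were 14.4 ± 1.08% sense and 11.2 ± 1.89% antisense (SD, n = 3 each).

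Stronger and weaker tRNA sites differed in where the summit lay. In the upper 50% of the list by signal, 25 tRNA sites had a median offset of -47 bp, none had its summit inside the tRNA gene, and 22 were supported in all 3 replicates. In the lower 50%, 63 sites had a median offset of 17 bp, 25 had the summit inside the gene, and 10 were supported in all replicates. The box B core in its stricter form GTTCGA, which lies inside the gene, was within 50 bp of the summit at 1 of the 25 and at 18 of the 63. Genes that match only the looser GTTCNA were not counted here. This split was looked at after the values were seen.

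The strongest tRNA site, near the arginine tRNA gene C18A11.t2 on chromosome X, had a signal of 1267 (rank 23) at 317 bp from the gene start, past its end (replicates 389, 329 and 317 bp). It stood at -4873 bp from the nearest coding start, that of xol-1. C28G1.t1 (glutamate) had 478 at -114 bp, but the coding start of C28G1.2 was nearer. F46G11.t2 (proline) had 411 at -48 bp (replicates -52, -37 and -95 bp). F41D9.t3 (asparagine, in an intron of sulp-3 on the other strand) had 388 at -47 bp (replicates -91, -67 and -43 bp).

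R04A9.t1 (glutamine) had 387 at -192 bp in the promoter window of hrg-11.4. M02F4.t1 (glycine) had 365 at -41 bp, and the replicates lay close together (-45, -41 and -29 bp). F13G11.t1 (arginine) had 364 at 307 bp, past the gene, with replicates at 308, 306 and 292 bp. C33G3.t2 (lysine) had 313 at -47 bp, C42D8.t1 (isoleucine) 304 at 128 bp and Y38E10A.t1 (alanine) 295 at -248 bp, in the promoter windows of Y38E10A.22 and Y38E10A.24. Thus 4 of these 10 summits stood 41 to 48 bp before the gene, 3 stood past its end, and none was inside it.

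Of the tRNA sites, 44 of 88 lay on chromosome X, against 845 of the 4285 other nuclear sites (19.7%). Many tRNA genes are on X: 276 of 612. In the replicates, 18.7 ± 0.754% of X-linked tRNA genes were reached, against 13.2 ± 0.687% of autosomal ones (SD, n = 3), with no overlap between the replicate values. The Wilson intervals of the optimal list, 15.3 to 24.6% on X and 10.7 to 18.1% on autosomes, did overlap. The autosomes differed among themselves. In the optimal list the share was 19.6% on X and 23.4% on III. It was 17.5% on II, 16.9% on IV, 7.69% on V and 6.06% on I. Across the replicates the share on III ranged from 10.9 to 18.8%. Of the miRNA genes, 7 of 74 on X were reached, against 33 of 187 on autosomes. Of the snoRNA sites 1 of 91 was on X, where 1 of 33 snoRNA genes was reached, and no snRNA site was on X, which has 3 of these genes.

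By amino acid, phenylalanine tRNA genes were reached at 4 of 14, asparagine at 5 of 20, glutamate at 10 of 41 and alanine at 8 of 34, and cysteine at 1 of 13 and tryptophan at 1 of 12. The share over all tRNA genes, 16.5%, lies inside the Wilson interval of each of these 6. In the replicates, alanine tRNA genes ranged from 20.6 to 29.4%, glutamate from 12.2 to 19.5% and histidine from 5 to 25%. The tRNA genes with an identical copy were reached at 17.3 ± 0.326% and those without at 10.3 ± 2.25% (SD, n = 3), and these replicate values did not overlap. Their Wilson intervals in the optimal list, 14.7 to 21.6% and 7.56 to 18.2%, did overlap. The part that reads shared between copies have in this difference was not tested.

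The miRNA sites lay upstream of the hairpin. The summit was upstream at 28 of 36 sites, inside the hairpin at 1 and past it at 7. The strongest was at mir-5549, at 2 bp with a signal of 882 (replicates -5, 3 and 16 bp), in the shared promoter window of the elongation factor gene eef-1A.1 and the replication factor C gene rfc-4. At mir-54 it was 730 at -293 bp (replicates -293, -301 and -283 bp), with no coding promoter window there. At mir-228 it was 503 at -402 bp, with a second summit of 125 at -198 bp, and the replicates gave -358, -491 and -533 bp.

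At mir-5595, in an intron of the chromatin remodeller gene nurf-1, the signal was 536 at -156 bp (replicates -139, -155 and -143 bp), in the promoter window of nurf-1. The mir-1824 site had 483 at 433 bp, past the hairpin and at -98 bp from a start of its host Y87G2A.18. At mir-230 the signal was 470 at -214 bp, with replicates at -260, -211 and -272 bp and the nearest coding start 2244 bp away. Of these 6 sites, 4 were upstream of the miRNA, and mir-54, mir-228 and mir-230 had no promoter window of a coding gene at the summit.

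Of the lists of miRNAs, the mir-51 family had most members in reach. Beside mir-54, the site near mir-52 had a signal of 370 at -145 bp and that near mir-53 had 282 at -130 bp, both supported in all replicates. The genes mir-54, mir-55 and mir-56 lie in a row in an intron of F09A5.3, and the 2 sites there (730 and 205) flank the row. The nearest optimal summit to mir-51 was that of mir-53, at 1709 bp, while replicate 3 had a summit in the mir-51 hairpin itself.

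In the mir-58 family, mir-58.1 had sites at -312 bp (161) and 581 bp (215), each supported by 2 replicates, and mir-80 had 175 at -174 bp, supported by all. The nearest optimal summits were 1595 bp from mir-81 and 2484 bp from mir-82, while replicate 2 had a summit 347 bp from mir-82. In the mir-35 family, which acts in embryos, the cluster of mir-35 to mir-41 had no site within 2012 bp and mir-42 had 164 at -170 bp, with 2 replicates.

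None of the 5 miRNAs of the developmental timing pathway had a site within 500 bp, where 15.3% of all miRNA genes had one. The nearest summit to let-7 was at -1855 bp with a signal of 498, and the replicates had it at 1855, 1892 and 1868 bp. The annotated let-7 gene (chrX:14743590-14745321) is longer than those of the other timing miRNAs, and these distances are from its start. The nearest summits were 12493 bp from lin-4, 8470 bp from mir-48, 17878 bp from mir-84 and 10246 bp from mir-241. The muscle miRNA mir-1 had none within 8265 bp, and lsy-6, which sets the identity of a taste neuron, none within 34122 bp. The summit upstream of let-7 lies outside the distance used here and is given as a value only.

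The GAGAGA repeat, on either strand and up to 50 bp on each side of a summit, was present at 18 of 36 miRNA sites (Wilson 34.5 to 65.5%), against 24.8% of the other nuclear sites (Wilson 23.5 to 26.1%). In the replicates' own summits it was at 37.5 ± 4.62% of miRNA sites and 22.1 ± 0.214% of the other sites (SD, n = 3), higher at miRNA sites in each. At snRNA sites it was 8.33%, at snoRNA sites 17.6% and at tRNA sites 19.3%. The sites at mir-5549 and mir-228, printed above, are among the 18.

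The tRNA box cores were more frequent at tRNA and snoRNA sites than at the other nuclear sites. Box A (TGGNNNAGT) was at 15.9% of tRNA sites and 14.3% of snoRNA sites, against 3.31% of the other nuclear sites, and box B (GTTCGA) at 19 of 88 and 10 of 91, against 3.64%. Box A was at 1 of 24 snRNA sites and 0 of 36 miRNA sites. For tRNA sites the boxes belong to the gene itself, so their presence follows from the offset and from whether the gene has these exact letters. In the replicates, box A was at 14.0 ± 3.71% of snoRNA sites and 3.29 ± 0.119% of the other sites (SD, n = 3).

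Sequences known to bind nuclear receptors were searched the same way, and so was the E-box CACGTG as a separate motif. The half-site AGGTCA was at 9.09% of tRNA sites, 2.20% of snoRNA sites, 4.17% of snRNA sites and none of the 36 miRNA sites, against 6.67% of the other sites. The extended FTZ-F1 half-site was at 4 of 239 sites (1.67%, Wilson 0.653 to 4.22%), all nearest tRNA genes, against 60 of 4285 other sites (1.40%, Wilson 1.09 to 1.80%). The E-box CACGTG was at 3.35% of these sites and 6.02% of the others. The intervals of the extended half-site overlap, and no match says only that these letters are not in this window.

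The distance of 500 bp fell among sites of ordinary strength on the inner side. Just inside were the sites nearest the snoRNA genes F58D5.12 and C51F7.3, both 491 bp from the gene, with signals of 123 and 120. Just outside were the site 501 bp from the snoRNA gene C06A1.9, with a signal of 2642 (rank 2 of the nuclear list), and the site 507 bp from the tRNA gene F58D5.t1, with 142.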

How the data were processed

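Tagged NHR-25 was profiled by ChIP-seq in 3 biological replicates, and no condition was compared. The authors deposited 30000 regions per replicate, described in their note as peaks and background together, and an optimal list of 4548 that passed a reproducibility threshold. The sources used here do not name the aligner or the caller. Per the deposited files, each region has the authors' signal, of unstated scale, and a −log10 q-value that was left unused. Depth is unknown. The pooled and ce10 lists were not used.

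Summits, 1-based on ce11, were joined to 1348 small RNA genes of Ensembl release 115 and assigned to the nearest gene body. Intronic genes lie wholly in an intron of a coding transcript and overlap no coding exon. Names and sequences are from RefSeq. Python 3.11.15, pandas 2.3.3, numpy 2.4.6 and scipy 1.17.1 were used. Intervals are 95% Wilson intervals and cover counting error only, and sites are not independent. The only test was the exact sign-flip permutation over the replicates. The joining was tested on simulated data, where 200 of 200 planted sites and 0 of 300 far sites were called.

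The genes named were those at the 10 tRNA sites and 6 sites each of the other biotypes of highest signal with full support, the sites on either side of 500 bp and the members of miRNA, SL1 and SL2 RNA lists. Other snRNA and snoRNA genes were named after their values were seen. Members, lists and motifs were chosen with earlier results of these data known. Alternatives were other distances, the upper 50% of the list, replicates left out, overlaps, region numbers, merging, motif windows, gene starts and gene spans.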

Additional observations from a re-analysis of the deposited data

How the results depend on the processing

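No paired analysis was possible because there is no second group of samples to pair, and differences between kinds of site were taken within each replicate. Of 228 alternative values over 36 results, 13 changed sign and 40 moved by more than the replicate SD, or by over 1.5 times for a share (the cause was not tested where none is given). The other 175 did not, but support differences and folds were held to their direction only, and the tRNA support difference ranged widely, being -1.09 points in the upper 50% of the list, -2.22 with 2 times the regions and -20.5 with 0.5 times. Each fold over the genome share stayed above 1 with every distance and number of regions. At 250 bp, miRNA sites were 0.442% of sites, 20% of them intronic, 10% within 100 bp of the start and 7.66% of miRNA genes in reach. At 1000 bp, snoRNA sites were 3.03%. In the upper 50% of the list by signal, tRNA sites were 1.15%, the genes reached were 4.74% (tRNA), 15.6% (snoRNA), 10.1% (snRNA) and 8.43% (miRNA), fewer sites being used, and 28.6% of snRNA sites were intronic.

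Median offsets there were -47 (tRNA), -39.5 (snoRNA), -23.5 (snRNA) and -214 bp (miRNA). The snRNA median was 6 bp at 250 bp and 2 bp at 1000 bp, and the snoRNA median -44.5 bp at 1000 bp. Keeping only sites supported by both replicates that remain when 1 is left out, fewer sites being used, gave tRNA medians of -22 to -20.5 bp, snRNA medians of -23 to -6.5 bp, miRNA medians of -214 to -196 bp, 3.57 to 4.35% of miRNA sites within 100 bp, 7.19 to 7.84% of tRNA genes and 9.58 to 12.3% of miRNA genes.

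Support differences over all sites were 0.236 points in the upper 50%, 1.24 with 50% overlap and 0.117 with 2 times the regions. With 50% overlap they were 0.878 (tRNA), -8.59 (snRNA) and -2.11 (miRNA). The snRNA value was -2.22 with 2 times the regions and 18.2 with 0.5 times, the snoRNA value 1.35 with 2 times the regions and -0.172 in the upper 50%, and the miRNA value -2.53 to 4.69 with a replicate left out (-2.53 without replicate 2).

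Motif differences from other sites, in points, were 0.512 for box B and -1.40 for the extended half-site at tRNA sites in the upper 50%. With a replicate left out they were 4.001 to 4.95 (box A), 4.23 to 8.59 (box B) and -1.44 to 1.27 (extended half-site, -1.44 without replicate 3). Within 25 bp they were 6.41 (box B at tRNA), 3.98 (box A at snoRNA), 19.1 (GAGAGA at miRNA) and 0.436 (extended half-site), and within 100 bp 22.4 (box A at tRNA), 38.1 (box B) and 31.3 (GAGAGA).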
